A study of Mus musculus with 6 samples.

Results

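Megakaryocyte and platelet genes were followed in the RNA of Ter119-positive fetal liver cells from mouse embryos labelled wild type or STAT5 knockout. STAT5 is a pair of closely related transcription factors, STAT5A and STAT5B, that cytokine receptors activate. The set was a list of 36 named genes of this lineage. A gene was measured through the probe sets that the array annotation pairs with its symbol alone, and where it had several, the one with the brightest mean log2 signal across the arrays stood for it. Of the 36 genes, 32 had such a probe set, among 18193 genes in all. The other 4, Gp1ba, Serpine2, Ptgs1 and Bin2, were not analysed here.

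Red cell precursors carry the antigen Ter119 as they mature, and cells bearing it were isolated at embryonic day 14.5, when the fetal liver is the main blood-forming organ. Wild type embryos gave 3 pools and embryos labelled STAT5 knockout gave 3 pools, each pool combined from 3 to 5 embryos of 1 genotype, with 1 Affymetrix Mouse430_2 array per pool. The labels give no strain, allele or further treatment, and they call the pools biological repeats. Values are log2 of the deposited signal, and differences are knockout minus wild type, with standard errors (SE) from limma fitted with no mean-variance trend. With 3 arrays per genotype the precision is limited.

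Megakaryocytes are the large polyploid cells that shed platelets, and they share a bipotent progenitor with red cells. The transcription factors GATA1, FLI1, RUNX1 and NFE2 drive their gene programme. Thrombopoietin, acting through the kinase JAK2, activates STAT5 in these cells as erythropoietin does in erythroid cells. Platelets carry adhesion receptors for collagen, von Willebrand factor and fibrinogen, receptors for thrombin, ADP, ATP and thromboxane, and granules loaded with chemokines and clotting proteins. Early fetal liver cells of the red cell lineage can retain some of these transcripts, and endothelium, macrophages and mast cells express several of the listed genes too.

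Sequences upstream of the transcription start are shown for the genes on which the results below turn. Pf4 and Ppbp are next to each other among the protein-coding genes of RefSeq and, with Tubb1, had their highest signal on the same array. Gp9 and Gp5 are receptor subunits with a higher knockout mean, Gp6 is a receptor with a lower one, and Fermt3 and P2ry1 are the members with the most separated genotypes. All are from RefSeq on the build GRCm38.p6 and read 5′ to 3′ on the strand of the gene. The 120 bases just before the start are given for Pf4 (chr5:90772315-90772434, plus strand), Ppbp (chr5:90768398-90768517, plus strand), Tubb1 (chr2:174450475-174450594, plus strand), Gp9 (chr6:87777950-87778069, plus strand), Fermt3 (chr19:7019470-7019589, minus strand) and P2ry1 (chr3:61002665-61002784, plus strand). For Gp5 the bases from 230 to 61 before the start are given (chr16:30310842-30311011, minus strand), and for Gp6 those from 170 to 91 (chr7:4397835-4397914, minus strand). Capitals mark matches on either strand to the letters searched for: AGATAA with its variants AGATAG and TGATAA and TGATAG for GATA factors, CCGGAA or else AGGAAG for ETS factors such as FLI1, and TTCNNNGAA for STAT factors.
Pf4: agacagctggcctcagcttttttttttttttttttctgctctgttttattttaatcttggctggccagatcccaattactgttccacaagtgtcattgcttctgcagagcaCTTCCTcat
Ppbp: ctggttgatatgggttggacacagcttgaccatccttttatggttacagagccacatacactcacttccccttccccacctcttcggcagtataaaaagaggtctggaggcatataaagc
Tubb1: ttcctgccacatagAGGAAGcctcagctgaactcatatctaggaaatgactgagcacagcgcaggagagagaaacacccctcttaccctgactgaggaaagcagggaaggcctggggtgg
Gp9: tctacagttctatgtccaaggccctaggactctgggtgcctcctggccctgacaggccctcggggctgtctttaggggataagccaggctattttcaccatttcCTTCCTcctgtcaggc
Gp5: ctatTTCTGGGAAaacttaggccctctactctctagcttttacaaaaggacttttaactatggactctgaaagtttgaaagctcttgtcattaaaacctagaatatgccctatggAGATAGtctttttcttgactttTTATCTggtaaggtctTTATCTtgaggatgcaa
Gp6: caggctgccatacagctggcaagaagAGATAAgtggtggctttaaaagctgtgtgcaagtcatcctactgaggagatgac
Fermt3: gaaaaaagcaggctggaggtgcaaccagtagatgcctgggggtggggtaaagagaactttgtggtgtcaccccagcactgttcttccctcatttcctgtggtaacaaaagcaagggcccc
P2ry1: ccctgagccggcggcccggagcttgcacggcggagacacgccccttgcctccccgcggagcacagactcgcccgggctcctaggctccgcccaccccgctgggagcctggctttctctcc

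In the stretch shown for Gp5 a STAT match and 3 GATA matches are marked, and in that of Gp6 1 GATA match. Pf4, Tubb1 and Gp9 each show 1 ETS match. No match of the letters searched lies in the stretches of Ppbp, Fermt3 and P2ry1. RefSeq promoters were at hand for 26 of the 32 measured members, 28 promoters in all, and were searched over the 250 bases before the start. GATA letters occurred in 28.6% of these and in 26.5% of all 32851 promoters, ETS letters in 57.1% and 38.2%, and STAT letters in 3.57% (Gp5 alone) and 7.02%. These are matches of letters only, and no binding was measured.

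Probe sets for control transcripts of Bacillus subtilis, which mouse RNA lacks, set the level of background: their 95th percentile was a log2 signal of 7.34, called the control level here. Median signals of the arrays ran from 175.6 to 215.8 and the 3′ to 5′ ratio of actin from 0.965 to 1.04. Stat5a and Stat5b, the targeted genes, were lower in each knockout array than in any wild type array at all 4 of their probe sets, with measured differences between -3.77 and -1.29 and no adjusted p under 0.05 in limma's fit over all probe sets. The knockout mean lay under the control level at 3 of the 4. The sources used here do not say which part of each gene was deleted. All 16 measured erythroid markers exceeded the control level in 1 genotype or both.

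Of the 32 members, 28 exceeded the control level in 1 genotype or both, and 23 in both. The defining markers chosen for the lineage, Pf4, Itga2b, Gp9, Gp1bb, Ppbp, Gp6 and Treml1, were all among the 28. Itgb3, Cd226, F2rl3 and Vwf were under that level in both genotypes, so for them the arrays give no difference that can be read. In a bulk sample, fewer cells of a type and less RNA per cell cannot be told apart.

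One wild type array stood apart for these genes. Wild type replicate 3 gave the highest of the 6 signals for 16 of the 32 members, against 13.9% of all genes. Wild type replicate 2 did so for 9 members (29.6% of all genes), knockout replicate 3 for 5 (12.5%) and wild type replicate 1 for 1 (18%). Knockout replicates 2 and 1 did so for 1 and 0 members (13.2% and 12.8% of all genes). The count for wild type replicate 3 was chosen after the values were seen. The excess was uneven. Ppbp, the platelet basic protein chemokine, read 13.1-fold above the mean of the other 5 arrays on that array, Tubb1, the tubulin isotype of the platelet marginal band, 13.9-fold, Pf4, platelet factor 4, 3.76-fold and Thbs1, the secreted adhesive glycoprotein thrombospondin 1, 2.53-fold. Itga2b, the integrin subunit that marks the lineage from its early stages, read only 1.13-fold above the others there, Gp9 1.26-fold, and Gp1bb 0.706-fold. The second probe set of Gp1bb went the other way, with its highest signal on that array (9.15, against 7.47 to 8.29 on the other 5). Over the 32 members 11 read more than 1 log2 unit above the mean of the other arrays on wild type replicate 3, as did 5.01% of all genes. Among the 11 were Cd226, Itgb3 and Vwf, which were under the control level in both genotypes. Of the 28 members above that level in 1 genotype or both, 14 had their highest signal on this array. For members and transcription factors whose difference moved by more than 1.5 times or changed sign without this array, the value without it stands beside the first.

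**Figure D1:**
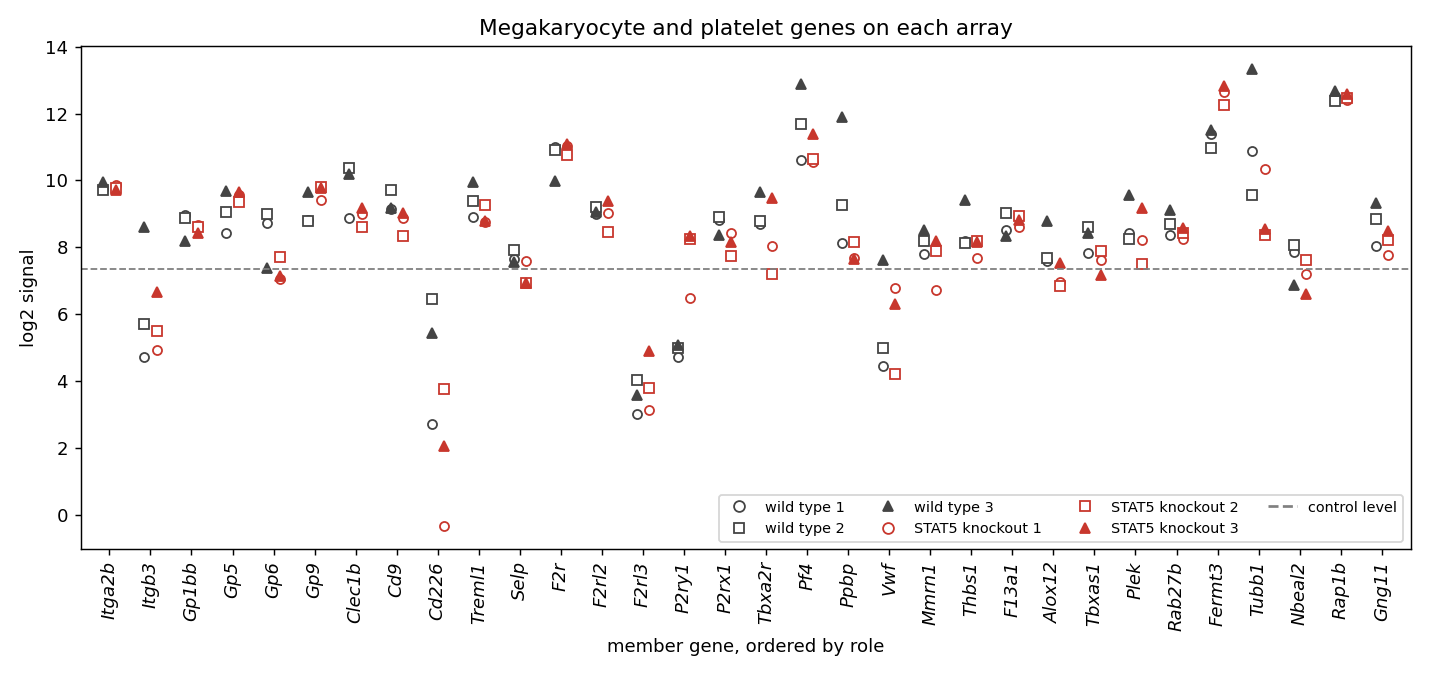
Log2 signal of the 32 measured members (horizontal axis, ordered by role) on each of the 6 arrays, wild type in grey and STAT5 knockout in red, with a dashed line at the control level of 7.34. The filled grey triangles of wild type replicate 3 stand high for Pf4, Ppbp, Tubb1 and Thbs1 and close to the other arrays for Itga2b, and the red symbols lie above the grey ones for Fermt3 and P2ry1.

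**Figure D2:**
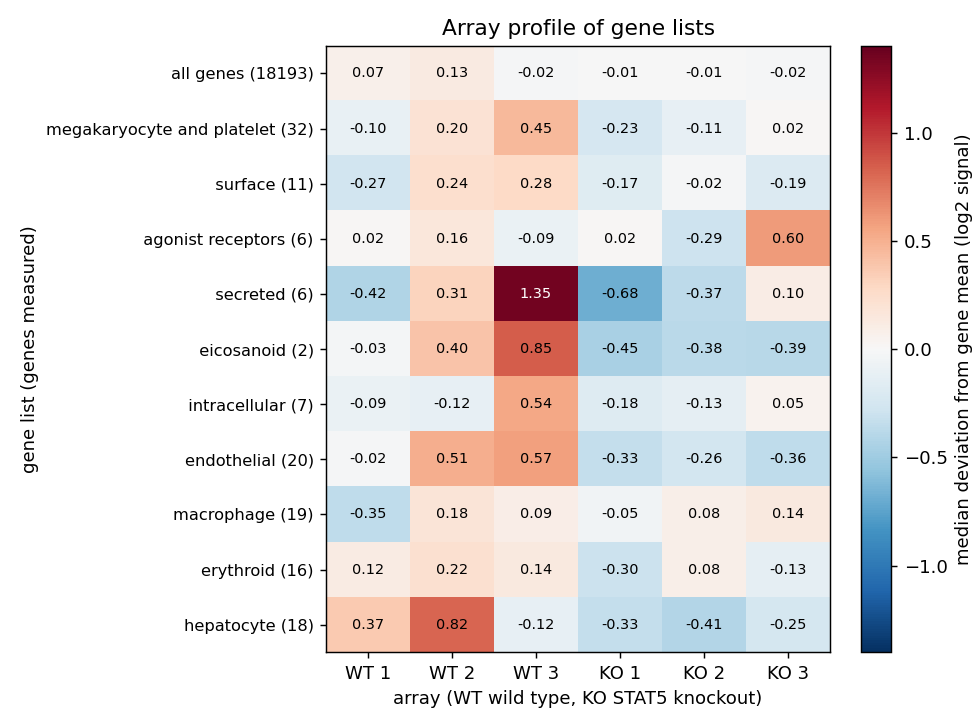
Median deviation of each array from the gene mean, in log2 signal, for all genes, for the members as a whole and by role, and for marker lists of other cell types, with the number of genes measured in parentheses. The secreted proteins of platelets reach 1.35 on wild type replicate 3 and the members as a whole 0.45. On that array endothelial markers lie at 0.57, and erythroid, macrophage and hepatocyte markers between -0.12 and 0.14.

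Other cells of the organ did not all follow that array. Hepatocyte markers had a median deviation of -0.12 on wild type replicate 3 and their highest median, 0.82, on wild type replicate 2, and none of 18 had its highest signal on replicate 3. Macrophage markers were highest there for 3 of 19 genes and erythroid markers for 3 of 16. Endothelial markers were highest there for 11 of 20 genes, among them Lyve1, a gene of sinusoidal endothelium. Tie1, Oit3, Flt1 and Tek, also among these, were under the control level in both genotypes. On wild type replicate 3, 6 of the 20 endothelial markers read more than 1 log2 unit above the mean of the other arrays. That is 30%, beside 34.4% of the members, and Tie1, Oit3 and Tek are among the 6. The part that endothelial RNA has in the excess of the members was not tested.

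Across genotypes, the members were lower in knockout pools more often than higher, and at most 1 passed the adjusted threshold in either fit. The median difference was -0.52 over the 32 members and -0.08 over all genes, and 24 of the 32 had a lower knockout mean, where 58.1% of all genes did. Among the 28 members above the control level in 1 genotype or both, 22 were lower and 6 higher, again with a median of -0.52. Without wild type replicate 3 the medians over all measured members and all genes were -0.24 and -0.14. After median centring of the arrays they were -0.40 and 0.03, with 22 of 32 members and 47.4% of all genes lower. No member passed an adjusted p of 0.05 in limma's fit without a trend, which called 8 of all genes (0.044%), or 0 with the replicate number as a block. At an unadjusted p under 0.05 this fit placed 0 members lower and 2 higher, Fermt3 and P2ry1, where it placed 5.5% of all genes lower and 3.41% higher.

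With a mean-variance trend, which lets the expected spread fall with brightness, 1 member passed, Fermt3, higher in knockout (0.44% of all genes passed). Among genes above the control level in 1 genotype or both, that fit had 5 of 28 members lower at an unadjusted p under 0.05, Cd9, Clec1b, Gp6, Ppbp and Tubb1 (17.9%, against 7.34% of all such genes), and 3 higher, Fermt3, Gp9 and P2ry1 (10.7% and 6.54%). Groups did not overlap for 2 members that were lower, Alox12 and Cd9 (9.85% of all genes), and for 2 that were higher, Fermt3 and P2ry1 (7.02%). In each direction the members' share was 6.25%, below the background. After median centring the first 2 overlapped as well, and after quantile normalization 1 of them did. The submitters' criterion, a p under 0.05 without adjustment and over 1.5-fold, was met by 5 of the 53 member probe sets, all 4 of Fermt3 and that of P2ry1, and by 5.19% of all probe sets.

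Same-numbered pools were also compared as pairs, over the same 28 members. The labels do not give this pairing. It was taken from these same signals, in which the deviations of same-numbered pools correlated at only 0.023 to 0.041 over all genes. Pools with different numbers reached 0.019. Counts over these pairs and fits with the replicate number as a block are therefore a description and give no independent support. The knockout pool was the lower one in all 3 pairs for 16 members (57.1%, against 22.6% of all genes above the control level), among them Pf4, Ppbp, Tubb1, Treml1, Gp6, Alox12, Tbxas1, Plek and Gng11. It was the higher one in all 3 for Fermt3, Gp9 and P2ry1 (10.7% and 17.4%). Over pairs 1 and 2 alone, which leave out wild type replicate 3, 17 members were lower in both (60.7%, against 37.8%). With the replicate number as a block, Alox12 and Gp6 were lower at an unadjusted p under 0.05 (7.14%, against 4.44%) and Fermt3 and P2ry1 higher (7.14%, against 3.29%), and no member passed the adjusted threshold in the fit without a trend. The pair counts were made after the values were seen.

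**Figure D3:**
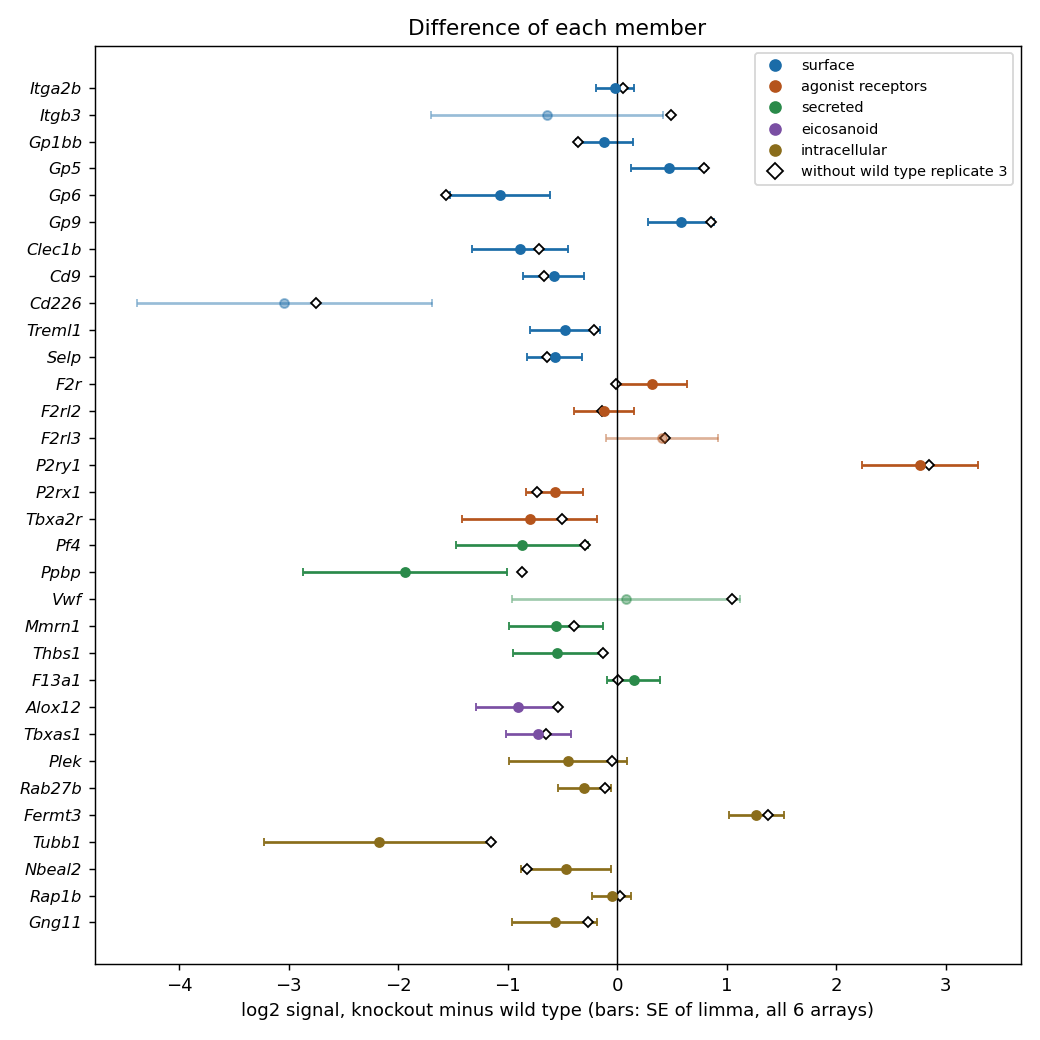
Knockout minus wild type difference of each member in log2 signal (horizontal axis), coloured by role, with bars of 1 SE from limma on all 6 arrays; pale points are members below the control level in both genotypes. Open diamonds give the difference without wild type replicate 3, which lies nearer to 0 for Pf4, Ppbp, Tubb1 and Thbs1 and barely moves for Fermt3 and P2ry1.

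Among the surface receptors, 9 of 11 measured members had a lower knockout mean and 2 a higher one, with a median of -0.57, or -0.48 over the 9 above the control level, and none past the threshold. The lineage integrin subunit Itga2b, which pairs with the product of Itgb3 as the fibrinogen receptor, read 9.75, 9.71 and 9.94 in wild type pools and 9.85, 9.77 and 9.71 in knockout pools. The groups overlapped throughout, and the difference was -0.02 (SE 0.17). Its 6 signals spanned the narrowest range of the 7 markers, and the sign of the difference turned to 0.09 after median centring and to 0.05 without wild type replicate 3.

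The glycoprotein Ib-IX-V complex, which binds von Willebrand factor, was measured through Gp1bb, Gp5 and Gp9. Gp9 read 8.82, 8.77 and 9.65 in wild type and 9.42, 9.79 and 9.76 in knockout. The knockout pools lay above the first 2 wild type pools, with only 1 wild type array among them, and the difference was 0.58 (SE 0.30, adjusted p = 0.607, limma), or 0.86 without wild type replicate 3. Gp5 read 8.42, 9.04 and 9.68 against 9.57, 9.34 and 9.66. The same array overlapped, and the difference was 0.47 (SE 0.34), or 0.79 without wild type replicate 3. Gp1bb read 8.97, 8.86 and 8.20 in wild type and 8.66, 8.60 and 8.43 in knockout, a difference of -0.12 (SE 0.26), or -0.36 without wild type replicate 3. Its second probe set gave -0.86 with no overlap, and the highest wild type signal there was again that of replicate 3 (9.15). The measured subunits had no common direction.

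Gp6, the collagen receptor that signals through an Fc receptor chain, read 8.72, 8.98 and 7.38 in wild type and 7.04, 7.70 and 7.15 in knockout. Of the knockout pools 2 lay under the control level and 1 above it, while 2 wild type pools lay well above and wild type replicate 3 fell among the knockout pools. Wild type was at least 1.87-fold higher, a measured difference of -1.07 (SE 0.46, adjusted p = 0.574, limma) and -1.56 without that array. For this receptor wild type replicate 3 was the lowest wild type array, the reverse of its place for Pf4 and Ppbp.

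Treml1, a receptor stored in platelet granules, read 8.90, 9.38 and 9.94 in wild type and 8.75, 9.26 and 8.77 in knockout. The groups overlapped, with a difference of -0.48 (SE 0.32), or -0.21 without wild type replicate 3. Clec1b, the receptor for podoplanin, read 8.88, 10.37 and 10.18 in wild type and 9.0, 8.59 and 9.17 in knockout. Here 2 wild type pools were high and the third lay among the knockout pools, with a difference of -0.89 (SE 0.44). Cd9, a tetraspanin of megakaryocytes and many other cells, read 9.13, 9.71 and 9.16 against 8.87, 8.35 and 9.03. All knockout pools were lower, by a narrow margin, with a difference of -0.58 (SE 0.28, adjusted p = 0.586, limma). Selp, the granule membrane selectin also made by endothelium, differed by -0.57 (SE 0.25) with its knockout mean under the control level, at least 1.23-fold lower.

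Of the 5 receptors of soluble agonists above the control level, 3 were lower and 2 higher, with a median of -0.12. With F2rl3, which cannot be read here, the median was 0.10. P2ry1, the ADP receptor that starts platelet shape change, read 4.72, 4.98 and 5.08 in wild type and 6.48, 8.26 and 8.34 in knockout. Every knockout pool lay above every wild type pool, but only 2 of them and no wild type pool exceeded the control level. The knockout mean was therefore at least 1.28-fold higher, for a measured difference of 2.77 (SE 0.53, adjusted p = 0.299, limma, and 0.111 with the trend). The gene has 1 probe set. The difference ran from 2.45 to 3.38 when arrays were left out in turn.

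The ATP-gated channel gene P2rx1 differed the other way, by -0.57 (SE 0.26), from 8.69 ± 0.28 (SD, n = 3) to 8.12 ± 0.35 (SD, n = 3) with overlap. Tbxa2r, the thromboxane receptor, read 8.70, 8.77 and 9.65 in wild type and 8.03, 7.20 and 9.47 in knockout. Replicate 3 was the highest array in each genotype, and the difference was -0.80 (SE 0.62), or -0.50 without wild type replicate 3 and -0.29 without knockout replicate 2. The thrombin receptor genes F2r and F2rl2, which have another gene between them, differed by 0.32 (SE 0.32) and -0.12 (SE 0.27). F2r, also a gene of endothelium and fibroblasts, was lowest in wild type replicate 3 (9.98, with the others between 10.77 and 11.08), and without that array its difference was -0.01.

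Of the 6 secreted and granule proteins 4 were lower and 2 higher, with a median of -0.56 and none past the threshold; Vwf, 1 of the higher, cannot be read here. Pf4 read 10.61, 11.68 and 12.89 in wild type pools and 10.54, 10.64 and 11.40 in knockout pools. Wild type pools themselves spanned more than 2 log2 units, and the lowest lay among the knockout pools. The difference of -0.87 (SE 0.60, adjusted p = 0.677, limma) became -0.29 without wild type replicate 3. Ppbp, next to Pf4 in the genome, read 8.14, 9.27 and 11.89 against 7.69, 8.15 and 7.66. The knockout pools were alike, wild type replicate 1 lay beside them and the other wild type pools were higher, and the difference of -1.94 (SE 0.93, adjusted p = 0.588, limma) became -0.87 without wild type replicate 3.

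Thbs1 read 8.18, 8.12 and 9.41 in wild type and 7.69, 8.20 and 8.16 in knockout, so that only wild type replicate 3 was apart at this probe set. The difference there went from -0.55 (SE 0.40) to -0.13 without that array. Its second probe set read 6.42, 7.75 and 9.83 against 6.10, 6.64 and 7.26. There wild type replicate 2 also lay above every knockout pool, while wild type replicate 1 overlapped. The knockout mean was under the control level, at least 1.58-fold lower (measured difference -1.33, SE 0.88). Mmrn1, a carrier of factor V in granules that endothelium also makes, differed by -0.56 (SE 0.43) and its second probe set, below the control level in both genotypes, gave a mean of opposite sign. F13a1, the clotting factor XIII subunit that macrophages make as well, read 8.64 ± 0.35 and 8.78 ± 0.16 (SD, n = 3), a difference of 0.15 (SE 0.24), or 0.01 without wild type replicate 3, its lowest array. The eicosanoid enzymes were both lower. Alox12, platelet 12-lipoxygenase, read 7.60, 7.69 and 8.77 against 6.95, 6.85 and 7.52. Its knockout pools all lay below the wild type pools with a mean under the control level, at least 1.53-fold lower (adjusted p = 0.564, limma), and the measured difference was -0.91 (SE 0.38), or -0.54 without wild type replicate 3. Tbxas1, thromboxane synthase, found in macrophages too, differed by -0.72 (SE 0.30) with overlap.

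Of the 7 intracellular members, 6 had a lower knockout mean and Fermt3 a higher one. Fermt3 encodes kindlin-3, the blood cell protein that binds integrin tails and is needed for integrin activation in platelets and leukocytes. Its representative probe set read 11.40, 10.98 and 11.52 in wild type pools and 12.64, 12.25 and 12.83 in knockout pools. The lowest knockout pool exceeded the highest wild type pool, and the knockout mean was 2.42-fold higher. The difference of 1.27 (SE 0.25) had an adjusted p of 0.31 in limma's fit without the trend, and with the trend Fermt3 rose (SE 0.19, adjusted p = 0.0265, limma). The other 3 probe sets gave 1.42, 0.81 and 0.60, each without overlap of the groups. The call held when replicate numbers were added as a block to that fit (adjusted p = 0.0189, limma). That block rests on the pairing taken from these same signals, so it gives no independent support. It ended without wild type replicate 1 (0.0861), wild type replicate 2 (0.0713), knockout replicate 1 (0.131) or knockout replicate 3 (0.111), after median centring (0.0706), and with only the dimmest probe set, the single one of the 4 whose name has no suffix for shared or variant transcripts (0.60, adjusted p = 0.434). Leukocytes express this gene too: of 19 macrophage markers 11 had a higher knockout mean, none with groups apart in that direction, and their summed signal was 33154 to 47664 in wild type and 40114 to 53133 in knockout pools. The part of macrophages in the rise was not tested.

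**Figure D4:**
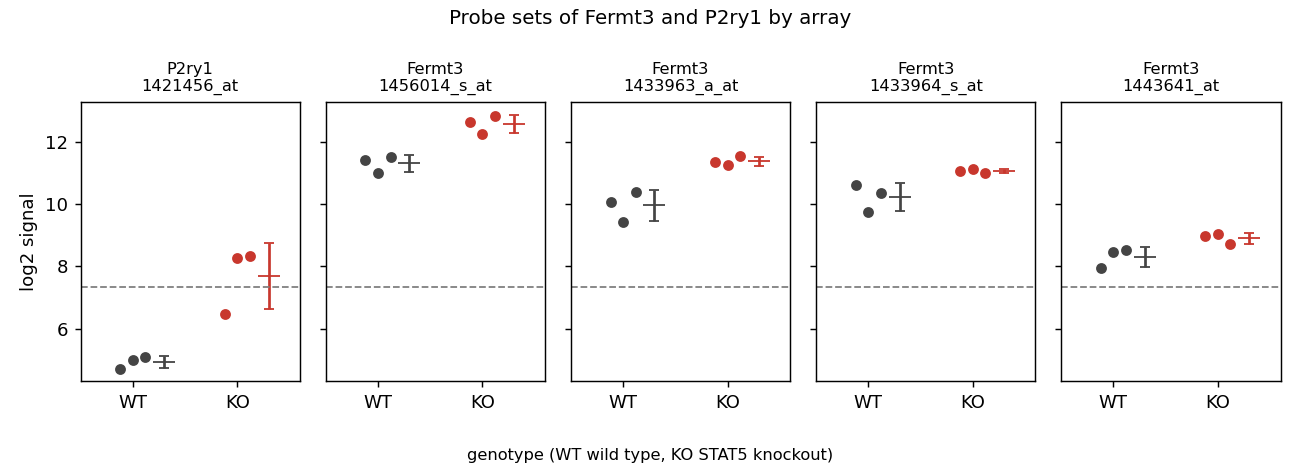
Log2 signal of the P2ry1 probe set and the 4 Fermt3 probe sets on each array (points), with the mean and SD of 3 arrays beside them, in wild type (WT) and STAT5 knockout (KO) pools; the dashed line is the control level of 7.34. In each panel the 3 knockout points lie above the 3 wild type points, and the wild type points of P2ry1 and 1 of its knockout points lie below the control level.

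Tubb1 read 10.89, 9.57 and 13.34 in wild type and 10.34, 8.36 and 8.55 in knockout. Wild type replicate 3 stood far above all other arrays, and knockout replicate 1 lay between the other wild type pools. The difference of -2.18 (SE 1.05, adjusted p = 0.589, limma) became -1.15 without wild type replicate 3. Gng11, a G protein gamma subunit, read 8.03, 8.83 and 9.32 against 7.76, 8.22 and 8.49 and differed by -0.57 (SE 0.39), or -0.27 without that array. Plek, the protein kinase C substrate pleckstrin that leukocytes also express, differed by -0.45 (SE 0.54), and Rab27b, a small GTPase of granule release, by -0.30 (SE 0.24). Without wild type replicate 3 these became -0.05 and -0.11. Nbeal2, needed for alpha granules, had a knockout mean under the control level at its representative probe set and was at least 1.12-fold lower there. The measured difference was -0.47 (SE 0.41), or -0.82 without wild type replicate 3. Its second probe set went the other way, with means of 7.25 in wild type and 7.38 in knockout and a difference of 0.12 with overlap. The 2 probe sets of Nbeal2 thus give no common direction. Rap1b, the GTPase that activates integrins and is expressed in most cells, read 12.54 ± 0.14 and 12.49 ± 0.09 (SD, n = 3), with a difference of -0.05 (SE 0.18) that turned to 0.07 after median centring and to 0.03 without wild type replicate 3.

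The transcription factors of the lineage and the thrombopoietin signalling genes had median deviations of 0.02 and -0.07 on wild type replicate 3, where that of the members was 0.45. Of 20 measured transcription factor genes 12 were lower and 8 higher in knockout, with a median of -0.09, and none passed. Gata1 differed by -0.14 (SE 0.21), Nfe2 by -0.07 (SE 0.20), Runx1 by -0.16 (SE 0.27) and Fli1 by 0.09 (SE 0.29). These 4 differences lie within 1 SE of 0. Without wild type replicate 3 they were -0.01, -0.04, 0.05 and 0.32, and all but that of Gata1 turned sign in some alternative. Ldb1, a cofactor of the GATA1 complex, read 10.26, 9.45 and 10.37 in wild type and 11.05, 10.77 and 10.87 in knockout, all knockout pools above, with a difference of 0.87 (SE 0.29, adjusted p = 0.53, limma). Lyl1, a relative of the factor TAL1, was also higher without overlap (0.58, SE 0.22), and Gfi1b, a repressor required in both lineages, differed by 0.67 (SE 0.29) with overlap. Erg was under the control level in either genotype, and Cbfb, the partner of RUNX1, differed by -0.31 (SE 0.19). Of 10 measured thrombopoietin signalling genes 7 were lower and 3 higher, with a median of -0.11. Cbl, a ubiquitin ligase that restrains cytokine signalling, read 9.46, 10.08 and 10.07 against 10.65, 10.66 and 10.68, with a difference of 0.79 (SE 0.23, adjusted p = 0.481, limma). Jak2 differed by 0.37 (SE 0.22), Shc1 by -0.32, Sh2b3 by -0.33 and Gab2 by -0.14, all with overlap.

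Of 62 further genes of platelet activation and secretion 34 were lower and 28 higher, with a median of -0.06. Cd36, platelet glycoprotein IV and a fatty acid receptor that early erythroblasts express as well, was the only one to pass, in the fit with the trend (adjusted p = 0.00302, limma, and 0.108 without the trend). It read 12.30, 12.46 and 12.13 in wild type and 10.58, 10.81 and 10.46 in knockout pools, far apart, and fell by 1.68 (SE 0.19). Wild type replicate 3 was its lowest wild type array. On that array 7 of the 62 genes read more than 1 log2 unit above the mean of the others, among them Rgs18, a regulator of G protein signalling in platelets, and Itga6, a laminin receptor subunit, beside 5.01% of all genes. None of 10 thrombopoietin signalling genes and 1 of 20 transcription factor genes (Erg) did. Among the genes so counted, Gnaz, Mrvi1, Trpc6 and Erg were under the control level in both genotypes.

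Marker lists of other cells were compared between the genotypes too, and no gene in them passed the adjusted threshold in either fit. Of 20 endothelial markers 18 were lower in knockout pools, with a median of -0.68, or -0.54 over the 15 above the control level in 1 genotype or both. Of the 18, 7 were lower without overlap, where 9.85% of all genes were. One of these, Oit3, was under the control level in both genotypes. The summed signal of the endothelial markers was 7761 to 10971 in wild type and 6455 to 7288 in knockout. The 3 with the highest mean signal, Fcgr2b, Cdh5 and Egfl7, differed by -0.06 (SE 0.28), -0.14 (SE 0.28) and -0.20 (SE 0.21). The sinusoidal gene Lyve1 was at least 4.04-fold lower, Sox18 at least 2.41-fold and Clec4g at least 1.85-fold, all without overlap, Eng differed by -0.83 (SE 0.27) and Cldn5 by -1.07 (SE 0.35). None passed the adjusted threshold, and Pecam1 was below the control level in both genotypes. All 18 hepatocyte markers were lower (median -0.69), 12 of them without overlap, with summed signals of 175359 to 302461 and 152071 to 166386. Granulocyte and mast cell markers were lower for 16 of 20 (median -0.32), with sums of 6606 to 10847 and 4102 to 10957, and of the lymphocyte markers 3 of 10 exceeded the control level in 1 genotype or both, with sums of 1209 to 1609 and 874 to 1288. Erythroid markers were lower for 15 of 16 (median -0.21), with sums of 522920 to 567079 and 410255 to 527083. The summed signal of the members was 22665 to 44742 in wild type, the highest being wild type replicate 3, and 22421 to 28554 in knockout. The part of these cells in the differences of the members was not tested.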

How the data were processed

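RNA of 6 pools was hybridised to 1 Affymetrix Mouse430_2 array each, 3 per genotype, grouped by sample title. The deposited values are linear intensities made by the authors; RMA and Partek are named, per the submitters' processing notes, with no version. Each array has the same trimmed mean of 500 (2% left out at each end), so arrays were scaled singly. The sources used here do not say how, and whether RMA made the deposited values is not settled.

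The deposited intensity was taken to log2 without adding a pseudocount. Of 45037 probe sets other than controls, 34945 had 1 gene symbol, which gave 18193 genes at 1 probe set each. All 32 members matched RefSeq (GRCm38.p6) by Entrez ID. Another 2 probe sets list a member beside other genes and were not used.

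The test was limma 3.58.1 (R 4.3.3), lmFit and eBayes, with Benjamini-Hochberg adjustment over all genes and a threshold of 0.05; the fit with a mean-variance trend is given beside it. Differences of a group under the control level (27 control probe sets) are bounds, with dim values raised to that level. Same-numbered pools of the 2 genotypes had deviations from their group means that correlated at 0.112 to 0.129 over 11174 genes above the control level. For pools with different numbers this ran from -0.105 to -0.004. Over all genes the ranges were 0.023 to 0.041 and -0.053 to 0.019, so same-numbered pools hardly stood apart there. The numbers were taken as pairs, and the pairing comes from the data, not from the labels.

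Members, gene lists and tests were chosen with earlier results of these data known. The rule for named genes took members with an unadjusted p under 0.05, non-overlapping groups or a place among 7 lineage markers in full, and of each further list the genes past the threshold or else the 5 with the smallest p, with Gata1, Fli1, Nfe2 and Runx1 always. Array values of other members (Gp5, Clec1b, Tbxa2r, Thbs1, Tubb1, Gng11), the genes named for their excess on wild type replicate 3, and Lyve1, Sox18, Clec4g, Eng, Cldn5 and Pecam1 were chosen after their values were seen, as were the promoter letters.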

Additional observations from a re-analysis of the deposited data

How the results depend on the processing

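Alternatives were the trend (also with robust estimation), the methods' t-test after adjustment, median centring or quantile normalization, a filter on the 50% dimmest probe sets, array weights, a replicate block, each array left out, 32 added to the signal, a gene's mean over its probe sets, and no _x_at, _s_at or _a_at probe sets. Leaving out genes below the control level in both genotypes, combinations with the trend and the counts over pairs were added after the data were seen. The 8 genes called became 80 with the trend, 66 with robust estimation, 4 by the t-test, 15 after quantile normalization, 3 after median centring, 20 without the dimmest probe sets, 15 with array weights, 0 with the replicate block, 3 without the suffixed probe sets and 5 without genes below the control level, and 0 (lowest and highest) without any 1 array. Members called went from 0 to 1 (Fermt3) with the trend, with or without robust estimation, and genes of the 3 further platelet lists from 0 to 1 (Cd36) with these 2 and without the dimmest probe sets; both stayed at 0 in the other alternatives of the fit without a trend, where the replicate block changed no other call. Probe sets meeting the submitters' criterion went from 2337 to 1156 without the dimmest probe sets and from 1997 to 2970 without 1 array. The median of the members ran from -0.61 to -0.24 without 1 array, the higher value without wild type replicate 3.

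In the fit with the trend, Fermt3 lost its call after median centring (1.39), with the mean of its probe sets (1.03) and without the suffixed probe sets (0.60), and differed by 1.11 to 1.44 without 1 array. Of 49 genes followed, 37 kept their sign in all alternatives. The others, none past the threshold, turned: Itga2b to 0.09 after median centring, 0.00 with array weights and -0.06 to 0.05 without 1 array; Rap1b to 0.07 and Nfe2 to 0.04 after median centring; with the mean of probe sets F2rl2 to 0.01, Mmrn1 to 0.68, Fli1 to -0.25 and Runx1 to 0.25. Without 1 array the ranges were -1.46 to 0.49 for Itgb3, -0.36 to 0.03 for Gp1bb, -0.01 to 0.51 for F2r, -0.33 to 0.13 for F2rl2, -0.06 to 0.81 for F2rl3, -0.55 to 1.05 for Vwf, -0.12 to 0.03 for Rap1b, -0.05 to 0.32 for Fli1, -0.21 to 0.03 for Nfe2 and -0.33 to 0.05 for Runx1. The cause was not tested. Signals under the control level limit Itgb3, Cd226, F2rl3, Vwf and the wild type side of P2ry1.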
